A study of Mus musculus with 18 samples.

Results

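The 10 genes of prostaglandin synthesis, breakdown and E-type prostaglandin receptors described here were followed through cultured mouse cortical astrocytes that carried designer receptors: Pla2g4a (Entrez 18783), Ptgs1 (19224), Ptgs2 (19225), Ptges (64292), Ptges3 (56351), Ptgis (19223), Ptger1 (19216), Ptger2 (19217), Ptger4 (19219) and Hpgd (15446). They were chosen by role and symbol, and all 10 were found among the 22078 gene identifiers of the count tables. The question was which steps of the pathway differed in mRNA level when a Gq-, Gs- or Gi-coupled receptor was engaged, and whether a difference was still there 3 days later.

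Each receptor was a DREADD, an engineered G protein-coupled receptor that answers to a synthetic ligand: hM3Dq couples to Gq, rM3Ds to Gs and hM4Di to Gi. Cells were transfected with a plasmid coding for 1 receptor, and 7 days later all cultures, controls included, received the ligand deschloroclozapine (DCZ, 8 µM) for 90 min. At 90 min, 3 libraries each came from hM4Di, hM3Dq, rM3Ds and control (EGFP) cells. For the later time the ligand was washed out at 90 min and RNA was taken 3 days afterwards from hM3Dq and control (mCherry) cells, again 3 libraries each. No library came from receptor-bearing cells without DCZ, control plasmid and time changed together, and neither the promoter of the plasmids, the share of cells transfected nor the mouse strain and age is given in the sources used here. The labels do not say whether libraries of a group were separate cultures, so the p-values reflect only how these libraries vary, and that variation may be technical.

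Prostaglandins are made in 3 steps. A phospholipase such as cytosolic phospholipase A2 (Pla2g4a) frees arachidonic acid from membranes, a cyclooxygenase (Ptgs1 or Ptgs2) turns it into prostaglandin H2, and a terminal synthase gives the final product, such as prostaglandin E2 from Ptges and Ptges3 or prostacyclin from Ptgis. Prostaglandin E2 acts through E receptors, of which Ptger1, Ptger2 and Ptger4 are members here, and Hpgd starts its breakdown. In the brain, prostaglandin E2 is known for roles in fever, blood flow and the response to injury, and Ptgs2 is the inducible cyclooxygenase, often described as an immediate-early gene, while Ptgs1 is the constitutive form.

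The 18 libraries held 16067367 to 25222365 estimated counts. At 90 min 3 libraries (EGFP 1, rM3Ds 2 and rM3Ds 3) stood apart on a first principal component that held 49.5% of the variance, with 382 to 600 CPM (counts scaled to the TMM-adjusted library total) summed over 12 cell cycle genes against 115 to 248 in the other 9. In the 3-day table mCherry 3 lay far from the other 5 libraries along the first component (53.7% of the variance). All 10 astrocyte markers were detected (summed level 498 to 1040 CPM at 90 min and 725 to 862 at 3 days), though Gfap reached 23.2 CPM at most. The collagen gene Col1a1 lay at 651 to 1910 CPM and 8 fibroblast and meningeal markers summed to 964 to 2660 CPM at 90 min. Of these, Slc6a13 stayed at or under 0.121 CPM, Col3a1 2.65 and Lum 3.31 at that time. The 10 microglial markers summed to 2.17 to 9.97 CPM, mostly Tmem119, with P2ry12, C1qb and Ptprc under 3 counts in every library. At 90 min the mural markers summed to 402 to 892 CPM, those of the oligodendrocyte lineage to 91.3 to 113 and the neuronal ones to 1.11 to 3.07. The mural sum was mostly Pdgfrb (289 to 527 CPM) and Acta2 (80.4 to 424), with Rgs5, Kcnj8 and Abcc9 at or under 0.373. The oligodendrocyte sum was mostly Cnp (83.1 to 105 CPM), with Mog, Olig2 and Sox10 at or under 0.284. RNA from other cells and RNA from astrocytes cannot be told apart in such bulk libraries, nor can fewer cells of a type and less RNA per cell.

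The promoters of the cyclooxygenase genes are shown because, of that pair, Ptgs2 differed between groups and Ptgs1 did not pass the test in any comparison. The 250 bases before the RefSeq start of each gene (GRCm38.p6, plus strand, chr1:150099781-150100030 for Ptgs2 and chr2:36230176-36230425 for Ptgs1) are given 5′ to 3′, with every motif found in capitals.
Ptgs2: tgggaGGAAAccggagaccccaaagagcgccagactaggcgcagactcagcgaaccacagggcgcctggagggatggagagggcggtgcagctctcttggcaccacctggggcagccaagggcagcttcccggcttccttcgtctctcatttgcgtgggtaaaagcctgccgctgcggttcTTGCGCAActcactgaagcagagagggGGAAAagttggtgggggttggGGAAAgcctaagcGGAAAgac
Ptgs1: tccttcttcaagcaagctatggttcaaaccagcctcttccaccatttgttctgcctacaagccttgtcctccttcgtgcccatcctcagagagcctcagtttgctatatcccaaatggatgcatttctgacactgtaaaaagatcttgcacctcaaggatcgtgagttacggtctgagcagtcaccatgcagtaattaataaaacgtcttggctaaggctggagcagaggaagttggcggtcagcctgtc
The first 50 bases after the Ptgs2 start held another stretch, at bases 5 to 28 (chr1:150100035-150100058).
Ptgs2 site: tcaccactaCGTCACGTGgagtcc

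These windows of 300 bases were searched on both strands for 7 motifs: the cAMP response element half-site TGACG, the E-box CACGTG, AP-1 TGANTCA, C/EBP TTGCNNAA, the NFAT core GGAAA, the TATA box TATAAA and an NF-kB motif, given by its name alone. The Ptgs2 window held 1 C/EBP match (TTGCGCAA, bases -69 to -62), 4 NFAT cores, and, after the start, a half-site on the minus strand (bases 14 to 18) that overlapped an E-box (bases 17 to 22). The Ptgs1 window held none of the 7. Of 32851 windows in the table, 20.8% held the half-site, 7.15% the E-box, 10.8% the C/EBP motif, 61.3% the NFAT core, 13.6% the TATA box, 7.81% the AP-1 motif and 0.411% the NF-kB motif. Among the 8 members with a window, the half-site was also in Ptges3 and the C/EBP motif also in Ptger2, and the E-box was in Ptgs2 alone. The NFAT core was in 5 of the 8, and the AP-1 and NF-kB motifs were in 0. The TATA letters were in Hpgd (bases 5 to 10, after the start) and in 1 of 2 Pla2g4a windows (bases -200 to -195). A match is a description of letters, and binding was not measured.

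Ptgs2 was the member that rose. Its level was 148, 105 and 151 CPM in the 3 hM3Dq libraries at 90 min and 9.88, 7.38 and 8.70 in the EGFP libraries. The rM3Ds libraries held 19.2, 24.3 and 25.2 CPM, and the hM4Di libraries 8.38, 16.6 and 9.28. Every hM3Dq library lay above every other library of that time, the rM3Ds libraries lay between, and the hM4Di range overlapped the EGFP range. Over all genes, hM3Dq did not overlap EGFP in 14.8%, rM3Ds in 21.8% and hM4Di in 20.1%, in either direction. For rM3Ds the shares were 7.5% against EGFP and 11% against hM4Di.

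**Figure D1:**
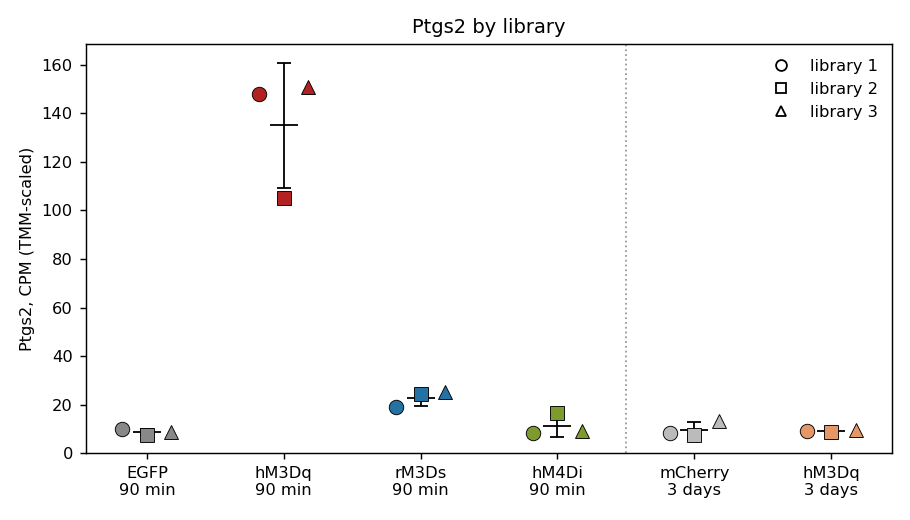
Ptgs2 level by library (CPM, linear axis from 0), with the group mean and SD (n = 3) in black. The 3 hM3Dq libraries at 90 min sit between 105 and 151 CPM, rM3Ds between 19.2 and 25.2, and at 3 days hM3Dq lies within the range of mCherry.

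Against EGFP, Ptgs2 rose with hM3Dq from 8.65 ± 1.25 to 135 ± 25.8 CPM (SD, n = 3 each), a log2 fold change of 3.96 ± 0.27 (SE) or 15.5-fold (95% interval 10.3 to 23.4). In edgeR's quasi-likelihood test with Benjamini-Hochberg adjustment over 13584 genes, its adjusted p was 4.31e-05. It had the fifth largest rise of all genes tested. The sum of 6 endothelial markers was also highest in these libraries, at 41.1 to 41.5 CPM with hM3Dq against 8.64 to 31.3 in the other 9, most of it from Tek and Flt1, while Pecam1, Cldn5, Kdr and Cdh5 stayed at or under 0.609 CPM. At 3 days, in libraries scaled separately, that sum was 62.7 to 65.5 CPM with hM3Dq and 60.2 to 71.8 with mCherry. The part of this sum in the Ptgs2 level was not tested at either time. Ptgs2 was the 1 member called at an adjusted p under 0.05 of the 8 tested, where 0.788% of all genes were called. Hpgd and Ptgis did not pass the filter on low counts.

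The Gs-coupled receptor gave a smaller difference. Ptgs2 was 22.9 ± 3.26 CPM in rM3Ds cells, 2.64-fold the EGFP level (interval 1.79 to 3.89), with an unadjusted p of 0.000192 and an adjusted p of 0.200, so it was not called by edgeR, which called 2 genes in all (0.0147%). The groups did not overlap, as for 7.5% of genes. DESeq2 called it (adjusted p 0.000153, 0.405% of genes called), and so did edgeR without rM3Ds 1 (log2 fold change 1.52, adjusted p 0.0303, 0.831% called), whereas limma-voom did not. The rM3Ds group mixes libraries of both kinds named above. Among those that stood apart, rM3Ds 2 and 3 held 24.3 and 25.2 CPM and the lone EGFP 1 held 9.88, and among the rest the lone rM3Ds 1 held 19.2 and EGFP 2 and 3 held 7.38 and 8.70. With the 3 left out, which leaves rM3Ds 1 alone in its group, the log2 fold change was 1.25.

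The receptors were also compared with each other. Ptgs2 was 5.88-fold higher with hM3Dq than with rM3Ds (interval 4.01 to 8.63, adjusted p 0.0011, edgeR), again the 1 member called where 0.67% of genes were. It was 11.8-fold higher with hM3Dq than with hM4Di (7.88 to 17.6, adjusted p 9.76e-05, 0.802% called), and those groups did not overlap, as in 20.1% of genes. Between rM3Ds and hM4Di, whose libraries did not overlap either (as in 11% of genes), it was 2.00-fold higher (1.37 to 2.93, adjusted p 0.238, edgeR, 0.0147% of genes called), a difference that DESeq2 called (adjusted p 0.0146, 1.51% called) and limma-voom did not. Against EGFP, hM4Di showed 1.32-fold (0.892 to 1.94, adjusted p 0.833, edgeR), with 0% of genes called in that comparison. None of the 8 members there had an unadjusted p under 0.05 (5.48% of all genes did), and DESeq2 and limma-voom called 0 of them. These comparisons share libraries and are not independent.

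At 3 days no difference in Ptgs2 was detected. Ptgs2 was 9.37, 8.80 and 9.59 CPM in hM3Dq libraries and 8.25, 7.49 and 13.5 in mCherry libraries, and the groups overlapped. The log2 fold change was -0.08 ± 0.22 (SE; interval -0.59 to 0.44, adjusted p 0.879, edgeR), and without mCherry 3, the highest library, it was 0.23 (adjusted p 0.258). The test of the change itself, the hM3Dq effect at 3 days minus that at 90 min, gave -4.02 ± 0.31 on the log2 scale (adjusted p 5.5e-05, edgeR), the 1 member of 8 tested that was called where 0.396% of genes were.

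The other cyclooxygenase did not pass the test. Ptgs1 was 17.7, 15.5 and 16.8 CPM with hM3Dq and 9.97, 18.5 and 16.1 with EGFP, a log2 fold change of 0.17 ± 0.40 (SE; interval -0.72 to 1.05, adjusted p 0.978, edgeR). It was 19.3, 13.9 and 12.6 CPM with rM3Ds and 4.43, 14.0 and 17.3 with hM4Di, where hM4Di 1 alone held the lowest value of the time point. Its difference between hM4Di and EGFP was -0.32 ± 0.40 and turned to 0.07 without that library. The interval for hM3Dq runs from 0.607-fold to 2.08-fold, so these libraries do not exclude a fall or rise of Ptgs1 within that range.

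Levels were also scaled per kilobase of the longest coding transcript. The isoforms present were not examined, so comparisons between genes depend on that choice of length. On this scale Ptgs2 stood below Ptgs1 in all 3 EGFP libraries, with ratios of 0.638, 0.257 and 0.348. In hM3Dq libraries at 90 min the ratio was 5.39, 4.36 and 5.79. It was 0.64, 1.13 and 1.28 with rM3Ds and 1.22, 0.761 and 0.345 with hM4Di. At 3 days it was 0.575 to 0.685 with hM3Dq and 0.665 to 1.03 with mCherry.

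The enzyme upstream, Pla2g4a, was already abundant. It was 93.1, 101 and 96.1 CPM with hM3Dq and 95.4, 103 and 96.9 with hM4Di, while EGFP held 40.3, 101 and 112 and rM3Ds 101, 53.5 and 50.7. The 3 low libraries are the 3 that stood apart, whose summed cell cycle genes were highest. In EGFP 1, rM3Ds 2 and rM3Ds 3 the mural sums were also highest (822, 892 and 869 CPM, against 402 to 625 in the others). Their endothelial sums were lowest (16.2, 8.64 and 8.77 CPM, against 22.6 to 41.5). The astrocyte sum was low in EGFP 1 (498 CPM) but not in rM3Ds 2 and 3 (975 and 1030). The part of any of these sums in the Pla2g4a level was not tested. The log2 fold change for hM3Dq against EGFP was 0.20 ± 0.34 (SE; interval -0.56 to 0.95, adjusted p 0.965, edgeR), and it was -0.15 with those 3 libraries left out. For rM3Ds against EGFP it was -0.30 ± 0.34 (adjusted p 1). In the annotation of GRCm38, Pla2g4a and Ptgs2 lie next to each other on chromosome 1 on opposite strands, with 3 non-coding genes and 0 protein-coding genes between them.

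Of the terminal synthases, Ptges, the inducible microsomal prostaglandin E synthase, was 16.9, 15.6 and 19.0 CPM with hM3Dq and 16.6, 17.8 and 17.3 with EGFP. The log2 fold change was -0.01 ± 0.14 (SE; interval -0.31 to 0.30, adjusted p 0.999, edgeR), an interval that reaches at most 1.23-fold higher, beside the 15.5-fold of Ptgs2. It was 19.8, 27.0 and 24.3 CPM with rM3Ds, above every EGFP library (7.5% of genes did not overlap). The log2 fold change there was 0.46 ± 0.14 (unadjusted p 0.00654, adjusted p 0.749, edgeR). With the 3 libraries that stood apart left out, which leaves rM3Ds 1 alone in its group, it was 0.17. Ptges was 18.4, 19.3 and 23.7 CPM with hM4Di, also above every EGFP library (8.51% of genes did not overlap), at 0.25 ± 0.14 (adjusted p 0.833).

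Between hM3Dq and rM3Ds the means of Ptges and Ptgs2 were in opposite order. Ptges was lower with hM3Dq than with rM3Ds by a log2 fold change of -0.46 ± 0.14 (SE; adjusted p 0.178, edgeR), and every hM3Dq library lay under every rM3Ds library, as in 21.8% of genes. Without rM3Ds 1, which leaves the 2 rM3Ds libraries that stood apart, it was called, at -0.59 (adjusted p 0.0399, where 4.27% of genes were called). With the 3 libraries that stood apart left out, which leaves rM3Ds 1 alone in its group, it was -0.21. The 2 rM3Ds libraries with the highest Ptges were those that stood apart, and EGFP 1, which also stood apart, had the lowest Ptges of its group.

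Ptges3, the cytosolic prostaglandin E synthase, also known as the p23 co-chaperone, was the most abundant member. It ran from 121 to 169 CPM over the 12 libraries at 90 min, and hM3Dq against EGFP differed by 0.13 ± 0.10 on the log2 scale (SE; interval -0.09 to 0.35, adjusted p 0.86, edgeR). Ptgis, the prostacyclin synthase, was 0.0791 to 1.11 CPM at 90 min and at most 0.102 CPM at 3 days, with 3 counts in all over the 3 hM3Dq libraries and 0 over the mCherry libraries. Hpgd, 15-hydroxyprostaglandin dehydrogenase, had no count in any of the 18 libraries, which allows up to 0.119 to 0.187 CPM (3 counts) by library, for counting error only.

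**Figure D2:**
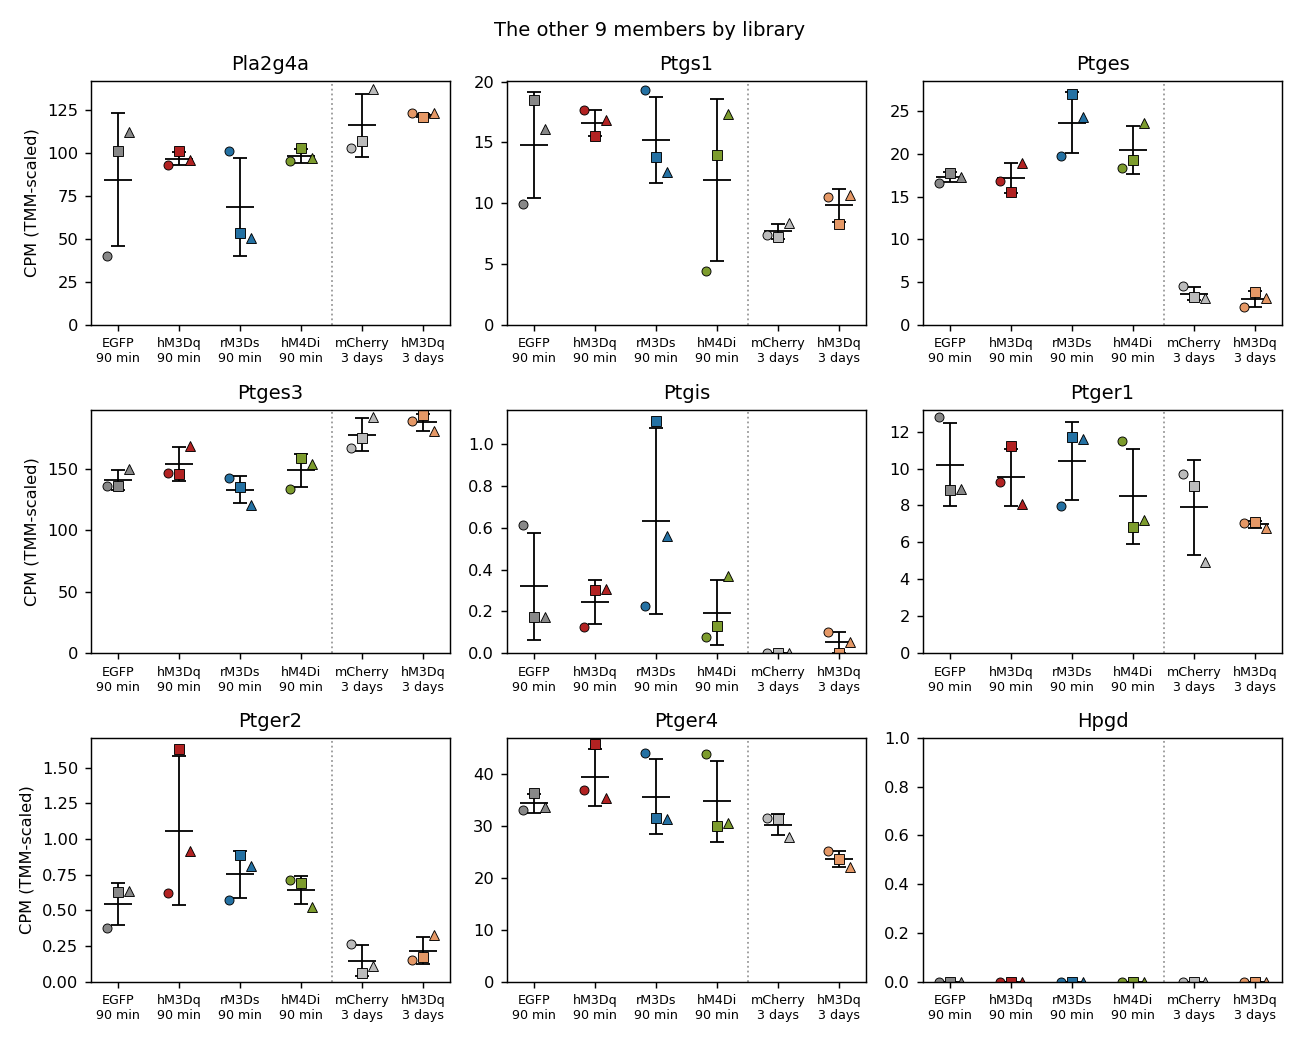
CPM of the other 9 members by library (each panel has its own linear axis from 0; marker shapes are libraries 1, 2 and 3), with group mean and SD (n = 3). Pla2g4a is low in EGFP 1, rM3Ds 2 and rM3Ds 3, Ptges is lower at 3 days than at 90 min in both hM3Dq and control cells (tables scaled separately, not tested), and Hpgd is at 0 throughout.

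Among the E receptors, Ptger4, which couples to Gs, was the most abundant. It was 37.0, 45.8 and 35.5 CPM with hM3Dq and 33.1, 36.4 and 33.6 with EGFP, a log2 fold change of 0.20 ± 0.17 (SE; interval -0.19 to 0.58, adjusted p 0.908, edgeR). At 3 days it was 25.2, 23.7 and 22.1 CPM with hM3Dq and 31.5, 31.4 and 27.9 with mCherry. There the groups did not overlap, as in 25.2% of genes, and the difference of -0.36 ± 0.10 had an unadjusted p of 0.00864 and an adjusted p of 0.276. The change of the hM3Dq effect between the times was -0.55 ± 0.16 (adjusted p 0.248). A pseudogene on the opposite strand, Gm15937, covers 15.3% of its exon bases.

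Ptger2, the other Gs-coupled E receptor, was scarce: 0.619, 1.63 and 0.916 CPM with hM3Dq and 0.378, 0.629 and 0.633 with EGFP. The groups overlapped, and the log2 fold change of 0.95 ± 0.42 (SE; interval 0.04 to 1.86) had an adjusted p of 0.613 in edgeR. At 3 days it was too low to be tested, at 0.0599 to 0.325 CPM. Ptger1, which couples to Gq, was 9.29, 11.2 and 8.09 CPM with hM3Dq and 12.8, 8.86 and 8.87 with EGFP (-0.10 ± 0.25, adjusted p 0.982).

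**Figure D3:**
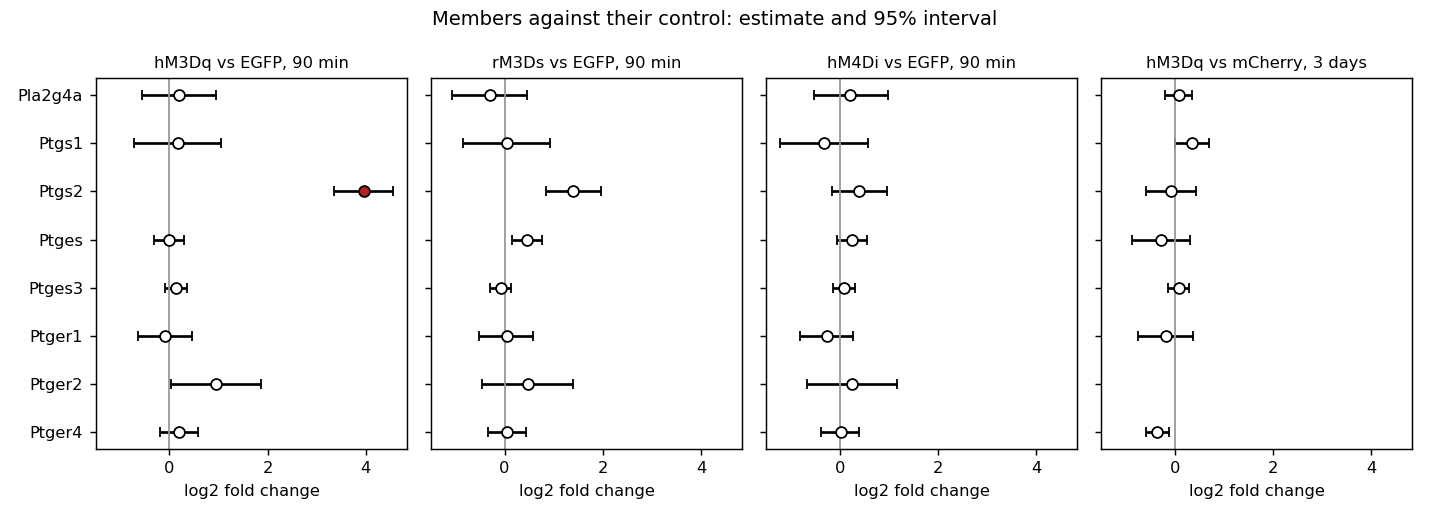
Log2 fold change of each tested member against its own control with its 95% interval, 1 panel per comparison, filled where the adjusted p was under 0.05. Ptgs2 with hM3Dq at 90 min (3.96) is the 1 filled point, and the Ptgs2 interval for rM3Ds (0.84 to 1.96) the Ptges interval beside it (0.16 to 0.76), Ptger2 with hM3Dq (0.04 to 1.86) and Ptgs1 at 3 days (0.01 to 0.70) also lie above 0, while Ptger4 at 3 days (-0.59 to -0.12) lies below.

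At 3 days none of the 7 members tested was called by edgeR, DESeq2 or limma-voom, and 2 had an unadjusted p under 0.05, Ptger4 and Ptgs1, as did 12% of all genes. edgeR called 0% of all genes there. Ptgs1 was 10.5, 8.27 and 10.7 CPM with hM3Dq and 7.39, 7.25 and 8.40 with mCherry, a log2 difference of 0.36 ± 0.15 (SE, adjusted p 0.406), with 1 hM3Dq library under the highest mCherry library. Ptges (2.10, 3.87 and 3.09 against 4.50, 3.30 and 3.19 CPM) differed by -0.29 ± 0.26 (adjusted p 0.61), and Ptges3 (189, 194 and 181 against 167, 175 and 192 CPM) by 0.08 ± 0.09 (adjusted p 0.68).

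A single control library decided the count at that time. Without mCherry 3, edgeR called 9.72% of all genes, and 3 members were among them: Ptger4 at -0.41 (adjusted p 0.00556), Ptger1 at -0.42 (0.0461) and Pla2g4a at 0.22 (0.0145). Pla2g4a was 123, 121 and 123 CPM with hM3Dq against 103, 107 and 137 with mCherry, and the difference with all libraries was 0.08 ± 0.12 (SE, adjusted p 0.754). Ptger1 was 7.07, 7.10 and 6.78 CPM against 9.69, 9.05 and 4.93, at -0.18 ± 0.24 (adjusted p 0.734). In both genes mCherry 3 was the library that crossed the hM3Dq values.

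Levels per kilobase of the longest coding transcript gave an order of the members that depends on that choice of length. In EGFP cells at 90 min, Ptges3 was first at 70.3 CPM per kb, then Pla2g4a at 29.6, Ptger4 at 10.4, Ptgs1 at 5.18, Ptges at 4.73, Ptger1 at 2.17 and Ptgs2 at 1.94, with Ptgis and Ptger2 under 0.2. The ranges of Ptgs1 and Ptges overlapped, as did those of Ptger1 and Ptgs2, and of Ptgis and Ptger2. In hM3Dq cells at 90 min Ptgs2 moved to rank 3, at 30.2 CPM per kb, with a range of 23.6 to 33.9 that overlapped that of Pla2g4a (32.6 to 35.4). Ptges was 0.828 CPM per kb with hM3Dq and 1.00 with mCherry at 3 days, against 4.71 and 4.73 with hM3Dq and EGFP at 90 min; these tables were scaled separately, so that gap was not tested.

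**Figure D4:**
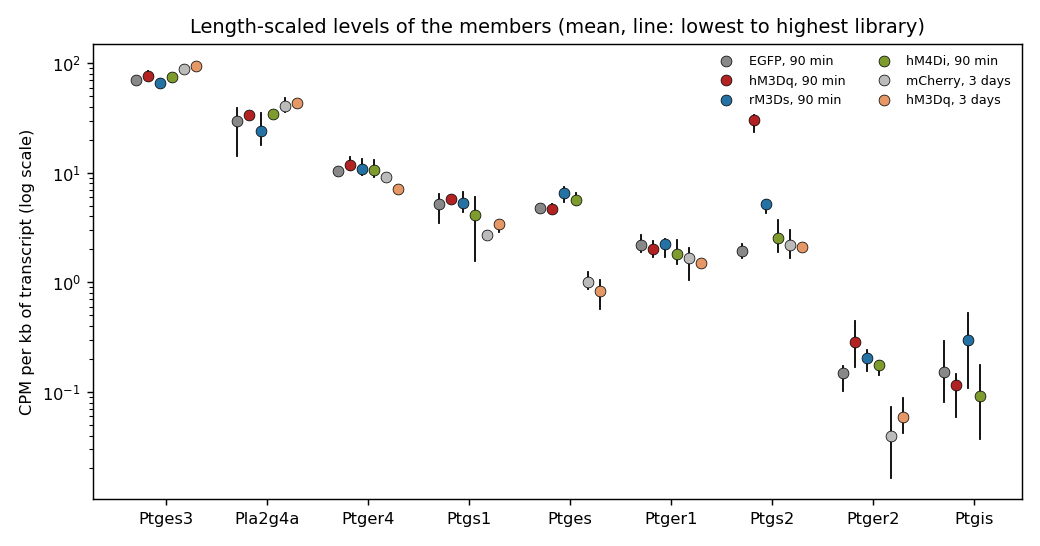
Mean level of each member in CPM per kb of its longest coding transcript (log axis) in the 6 groups, with a line from the lowest to the highest library; groups with a library at 0 and Hpgd are not drawn. Ptgs2 spans from 1.94 with EGFP to 30.2 with hM3Dq at 90 min, while Ptges3 stays between 66.5 and 94.0.

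Other genes of eicosanoid metabolism were read as a list of 47, of which 26 passed the filter at 90 min and 25 at 3 days. None was called in any of the 8 comparisons by edgeR, DESeq2 or limma-voom with all libraries. Without rM3Ds 1, edgeR called 2 of 28 for hM3Dq against rM3Ds (Cbr1 and Ephx2, where 4.27% of all genes were called) and 3 of 28 for rM3Ds against hM4Di (these and Pla2g12a, 2.83%). Without mCherry 3 it called 3 of 25 at 3 days (Anxa1, Ptgfrn and Ptgr1, 9.72%). Against EGFP, the unadjusted p was under 0.05 for 0 of the 26 with hM3Dq, 3 with rM3Ds and 3 with hM4Di, and for 4 of 25 at 3 days. Over all genes the shares were 7.94%, 4.23%, 5.48% and 12%. With hM3Dq the median over the list was 0.04 (log2 fold change), beside -0.003 over all genes tested. That of the 8 members tested, Ptgs2 included, was 0.18. Whether these medians differ was not tested, and the members were chosen with earlier results known.

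The smallest p with hM3Dq belonged to Mgll, the monoacylglycerol lipase that can also supply arachidonic acid (0.43, adjusted p 0.748, edgeR), and Dagla, a diacylglycerol lipase (-0.17, 0.757). With rM3Ds they were the aldo-keto reductase Akr1b3 (0.28, adjusted p 1) and Mgll (0.62, 1), and with hM4Di the phospholipase Pla2g4b (-2.59, 0.833, at 0.0835 against 0.563 CPM) and Akr1b3 (0.29, 0.833). At 3 days they were the prostaglandin reductase Ptgr1 (0.36, 0.321) and Ptgfrn (0.29, 0.322), and in the change of the hM3Dq effect Ptgr1 (0.57, 0.451) and Mgll (-0.56, 0.525). Between receptors they were Plaa (0.23, 0.272) and Pla2g2e (0.76, 0.311) for hM3Dq against rM3Ds, Pla2g4b (2.22, 0.3) and Pla2g12a (-0.34, 0.485) for hM3Dq against hM4Di, and Pla2g12a (-0.45, 0.398) and the carbonyl reductase Cbr1 (-0.56, 0.437) for rM3Ds against hM4Di.

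By list heading, 12 of 17 genes under phospholipases and lipases and 5 of 8 under further synthases were tested at 90 min. So were all 5 under transport and breakdown, 1 of 7 under further receptors and 3 of 10 under the lipoxygenase branch. The headings are loose. Ptgfrn, the gene tested under receptors, codes for a regulator of a prostaglandin receptor rather than a receptor. Anxa1 and Plaa, tested under the first heading, are not lipases, and Ephx2, under the last, is an epoxide hydrolase. The third E synthase, Ptges2, was 19.7 CPM with EGFP and 21.1 with hM3Dq. The remaining E receptor, Ptger3, was at most 0.09 CPM in any group mean. The prostaglandin transporter Slco2a1, picked after its values were seen, was 17.2, 19.0 and 23.3 CPM in the 3 libraries that stood apart (EGFP 1, rM3Ds 2 and rM3Ds 3) and 1.94 to 6.5 in the other 9, and at 3 days it was 0.482 to 1.08 CPM.

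The 5 genes named here had the profile most like that of Ptgs2 over the 12 libraries at 90 min, by Pearson's r of log2 CPM among tested genes whose log2 CPM averaged 1 or more. They were Ell2 (0.976), a transcription elongation factor, Ifrd1 (0.974), Katnbl1 (0.970), Srxn1 (0.968), which reduces oxidized peroxiredoxins, and Atf3 (0.961), a stress- and activity-responsive transcription factor. All these values share the contrast between the 3 hM3Dq libraries and the other 9, so they describe that contrast. Their log2 fold changes for hM3Dq against EGFP were 1.34, 1.12, 1.08, 1.24 and 2.82, all under the 3.96 of Ptgs2. The 7 other members tested had r from -0.18 (Ptges) to 0.58 (Ptger2).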

How the data were processed

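The authors trimmed reads with fastp 0.23.4 and quantified them with Salmon 1.8.0 against mm39, per the submitters' processing notes; libraries were poly-A selected, per the labels' protocols. The deposited values are estimated counts per Entrez identifier in 1 table for 90 min and 1 for 3 days (55.9% and 30.5% of values were not whole), and were rounded here. Symbols were matched for 21978 identifiers; the others held 0.0344% of counts. Genes were tested with edgeR 4.0.16 (R 4.3.3; filterByExpr, TMM, robust quasi-likelihood fit, 12 libraries at 90 min and 6 at 3 days, Benjamini-Hochberg over all genes tested, called below 0.05); the change between times used 12 libraries of both tables. Alternatives were RLE size factors, no filter, DESeq2 1.42.0, limma-voom (limma 3.58.1), a replicate block, only the groups compared, leaving out each library and, added later, the 3 libraries that stood apart. Scripts were tested on simulated data.

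The members, the lists and the motifs were chosen with earlier results of these data known. Named genes are all members, the called genes of the list of 47 or else the 2 with the smallest p, and the 5 genes most like Ptgs2. Outside that rule, Ptges2, Ptger3 and Slco2a1, list genes called only without 1 library, and cell type markers are named after their values were seen. Transcript lengths and overlaps came from GENCODE M21 (GRCm38), promoter windows from RefSeq, with 8 of the 10 members matched. The authors' coordinates are on another build and were not used. Whether counting used strand is not given in the sources used here. Without strand, reads of overlapping genes cannot be told apart, so levels of members that overlap other genes are uncertain. A further result is not reported here. Depths of 16067367 to 25222365 counts put 3 counts at 0.119 to 0.187 CPM.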

Additional observations from a re-analysis of the deposited data

Results flagged for a closer look

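The effect of hM3Dq on Ptgs2 differed between the time points. The log2 fold change at 3 days minus that at 90 min was -4.02 ± 0.31 (SE, adjusted p 5.5e-05, edgeR). At 90 min hM3Dq lay above EGFP in 3 of 3 libraries, where groups did not overlap in 14.8% of genes. At 3 days it lay within the mCherry range. The controls carried EGFP at 90 min and mCherry at 3 days, so time and control plasmid cannot be told apart in the difference of -4.02.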

How the results depend on the processing

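Ptgs2 stayed called, with the same direction, under every alternative run for hM3Dq against EGFP (3.86 to 4.11, log2), rM3Ds (2.43 to 2.81) and hM4Di (3.39 to 3.90), and for the change between times (-4.21 to -3.71). The number of members called moved from 0 to 1 under DESeq2 for rM3Ds against EGFP and against hM4Di, and leaving out 1 library at a time gave 0 to 1 for rM3Ds against EGFP, 1 to 2 for hM3Dq against rM3Ds and 0 to 3 at 3 days. Signs were followed for 27 member folds: all tested members for hM3Dq against its control at each time, and chosen members in the other comparisons. The remaining member folds were not followed. Of the 27, 7 changed sign under some alternative. None of the 7 was called with all libraries or at the changed sign, and 1 of them, Ptger1 at 3 days, was called at -0.42 without mCherry 3. With the 3 libraries that stood apart left out, Pla2g4a, Ptger1 and Ptgs1 turned to -0.15, 0.09 and -0.06 for hM3Dq against EGFP. Leaving out 1 library at a time gave, for the same comparison, -0.14 to 0.45 for Pla2g4a, -0.22 to 0.10 for Ptger1, -0.05 to 0.36 for Ptgs1 and -0.08 to 0.06 for Ptges, for hM4Di against EGFP -0.69 to 0.07 for Ptgs1, and at 3 days -0.42 to 0.00 for Ptger1 and -0.23 to 0.23 for Ptgs2. The cause was not tested. Over all genes, hM3Dq against EGFP called 107 genes, 232 with DESeq2 and 50 to 103 without 1 library; the 3-day comparison called 0, 156 with DESeq2 and 1257 without mCherry 3; rM3Ds against EGFP called 2, 55 with DESeq2 and 115 without rM3Ds 1; hM4Di against EGFP called 0 and 28 with DESeq2. Against rM3Ds and hM4Di, hM3Dq called 91 and 109 genes, and 463 and 424 with DESeq2. Without 1 library it called 28 to 590 and 38 to 106. With the 3 libraries left out, hM3Dq called 300 against hM4Di. For rM3Ds against hM4Di 2 were called, 205 with DESeq2 and 392 without rM3Ds 1. The change between times called 53, 202 with DESeq2 and 28 to 170 without 1 library (170 without EGFP 1). Fitted on only its own groups, rM3Ds called 0 genes against EGFP or hM4Di and hM3Dq called 138 against rM3Ds.

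Whether replicate numbers pair the libraries was not settled. The correlation of deviations between same-numbered libraries ran from -0.744 to 0.376 at 90 min, with 6 of 18 pairs over 0.1, and from -0.000868 to 0.0456 at 3 days. Every same-number value with rM3Ds was negative. The values were 0.105, 0.129 and 0.098 for hM3Dq with EGFP, 0.376, 0.0925 and 0.279 for hM4Di with EGFP, and 0.204, -0.0942 and 0.228 for hM4Di with hM3Dq. Deviations from the mean of 3 libraries cannot decide this. With the replicate number as a block, hM3Dq against EGFP called 66 genes and Ptgs2 remained the 1 member called; hM3Dq called 53 genes against rM3Ds and 61 against hM4Di, and rM3Ds called 4 against EGFP and 0 against hM4Di. The block changed no call of a member in any of the 8 comparisons.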
